A study of Mus musculus with 15 samples.

Results

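The genes described here are 10 mouse genes of the cell's chemical defence: the metallothioneins Mt1 and Mt2, the glutathione genes Glrx, Gclm, Gclc and Gsta4, the Nrf2 target enzymes Hmox1, Nqo1 and Txnrd1, and the mitochondrial superoxide dismutase Sod2. They were found by symbol in the annotation of the array, where each of the 10 had 1 probe set, out of 19937 genes with a probe set of a single symbol. All 10 had a mean signal above the median of all probe sets and were among the 12102 genes tested. No measured value chose them in this table, but the set was drawn up with earlier results of these data known.

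RNA came from left-ventricular cardiomyocytes of adult male C57Bl/6NT mice, 8 to 9 months old, after whole-body exposure to 90 cGy of 1 GeV protons or after sham handling. According to the titles, the proton groups were day 1 (2 arrays), day 3 (3 arrays), day 5 (3 arrays), day 12 (2 arrays) and day 26 (2 arrays), and the sham arrays were 2 of day 1 and 1 of day 3. The study's design lists days 1, 3, 7, 14 and 28 instead, so the true day of the later groups is uncertain; title days are printed throughout. Sham was pooled over its 3 samples because days 5, 12 and 26 lacked a matched one. For those days, an effect of protons cannot be told apart from one of time or handling. The same holds for the comparison of late against early days below. Hearts were digested with collagenase and the cells taken through a calcium gradient; per the labels, over 90% of the cardiomyocytes tolerated calcium, and some inflammatory or endothelial cells could remain. Replicates 1 and 2 of proton day 5 hardly differed (SD of their log2 differences 0.0768 over the genes tested, against 0.222 to 0.527 for the other pairs of arrays) and were averaged, which left 11 proton and 3 sham samples. No label states that the arrays within a group are from separate mice, so the p-values measure only the spread between these samples, which may be technical.

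Metallothioneins are small cysteine-rich proteins that bind zinc, copper and cadmium; their transcription is switched on by the zinc-sensing factor Mtf1 at metal response elements and also by glucocorticoids. Nrf2, the product of Nfe2l2, is held down by Keap1 and, when freed by oxidants or electrophiles, binds antioxidant response elements at genes for glutathione synthesis, quinone reduction and haem breakdown. Glutathione made by the ligase of Gclc and Gclm is used by glutaredoxins to repair protein thiols and by transferases to remove lipid aldehydes, which arise in the mitochondria-rich heart muscle cell.

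The stretches upstream of Mt2, Glrx and Gclm are shown as examples of a metallothionein and of the glutathione genes described first below, because both kinds of element have been described at genes of this class. Sequences are from RefSeq (GRCm38.p6, plus strand, 5′ to 3′), each ending just before the annotated gene; capitals mark matches on either strand to the metal response element core, TGCACNC or TGCGCNC, or the antioxidant response element core, TGACNNNGC.
Mt2, chr8:94172368-94172617: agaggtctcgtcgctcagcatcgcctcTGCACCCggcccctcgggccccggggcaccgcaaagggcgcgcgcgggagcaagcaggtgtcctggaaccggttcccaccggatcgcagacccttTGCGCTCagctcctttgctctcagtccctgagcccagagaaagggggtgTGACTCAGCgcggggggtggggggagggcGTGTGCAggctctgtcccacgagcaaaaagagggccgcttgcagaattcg
Glrx, chr13:75839635-75839884: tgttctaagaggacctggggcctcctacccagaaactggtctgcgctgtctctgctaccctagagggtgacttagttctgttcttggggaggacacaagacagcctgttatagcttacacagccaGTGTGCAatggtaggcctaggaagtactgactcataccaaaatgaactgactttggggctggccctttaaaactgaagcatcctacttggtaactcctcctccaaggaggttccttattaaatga
Gclm, chr3:122245307-122245486: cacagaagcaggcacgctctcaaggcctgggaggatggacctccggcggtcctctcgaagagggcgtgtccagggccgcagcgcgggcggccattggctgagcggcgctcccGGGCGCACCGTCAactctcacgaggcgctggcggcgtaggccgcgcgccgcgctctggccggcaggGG

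Over the 250 bases before an annotated start, Mt2 held 3 matches to the metal core and 1 to the antioxidant core, Glrx held 1 metal match, and Gclm held 2 metal matches and 1 antioxidant match. In Gclm the antioxidant match shares bases with the first metal match, and the second metal match lies across the gene's annotated start, so only its first bases are in the stretch shown. The 250-base window of Mt1 lies partly inside its own gene record and is not shown; it held 1 metal match, TGCACAC, 23 to 17 bases before the start. Of 32851 such windows in the mouse table, 21.4% held at least 1 metal match, 5.18% at least 2 and 1.26% at least 3, and 10.2% held at least 1 antioxidant match. Windows were found for 7 of the 10 genes: Nqo1 and Sod2 had no match, and Txnrd1 had 1 antioxidant match in 1 of its 3 windows. Windows of Gclc, Gsta4 and Hmox1 were not used. A match of these letters is a description and says nothing of what binds there.

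**Figure D1:**
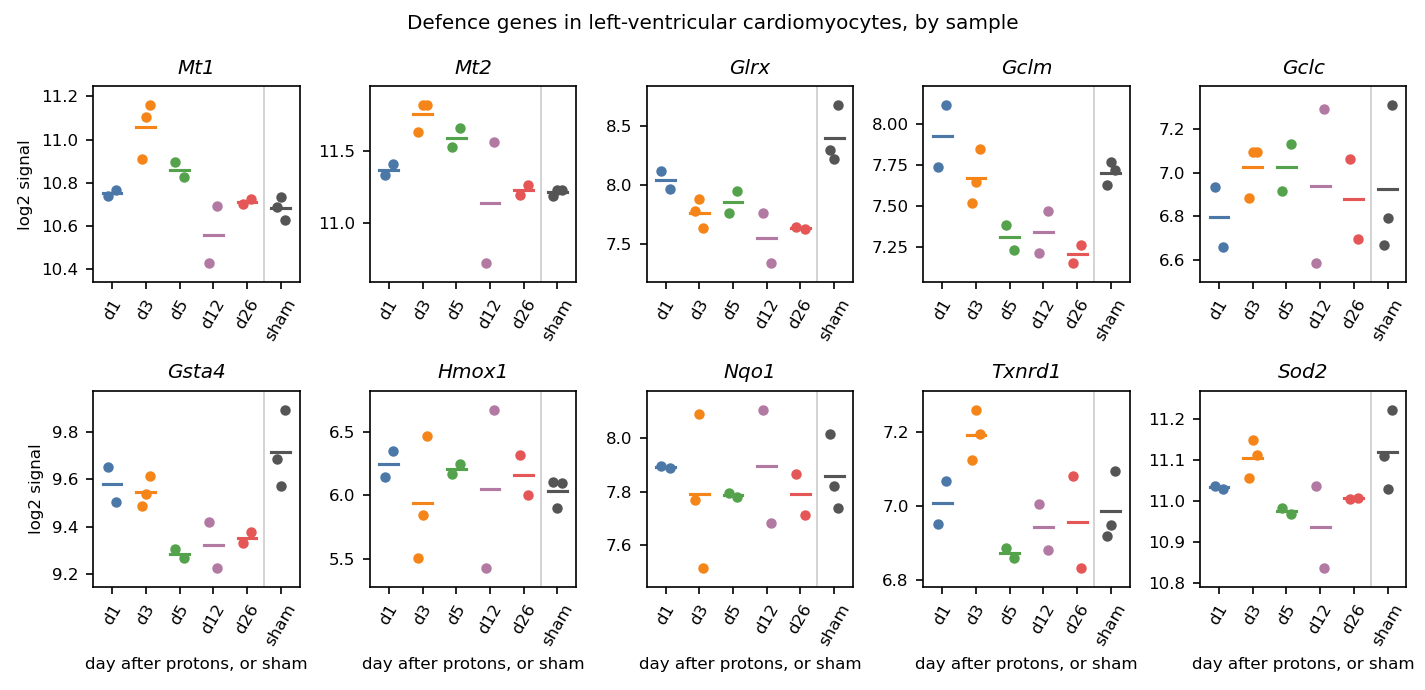
Log2 signal (vertical axes, own scale per gene) of each of the 10 genes in the 14 samples; points are samples, horizontal bars are group means, and the groups from left to right are days 1 to 26 after protons (d1 to d26) and sham. Glrx is the gene with every proton sample below every sham sample, Mt1 and Mt2 are highest on day 3, and Gclm and Gsta4 are low from day 5 on.

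None of the 10 genes passed an adjusted p of 0.05 in any comparison of the main analysis, a limma fit over 12102 genes with Benjamini-Hochberg adjustment. Few genes of any kind did. The share of all genes that passed was 0% on day 1, 0.00826% on day 3, 0.0496% on day 5, 0% on day 12 and 0.0413% on day 26, each against sham. It was 0.0248% for the mean of the proton days against sham, 0.00826% for late against early days (the mean of days 12 and 26 minus that of days 1 and 3), 0.0248% for the test of any proton day and 0% for a difference among the proton days. At an unadjusted p under 0.05, the fit counted 1 of the 10 genes on day 1 (5.5% of all genes), 3 on day 3 (8.86%), 4 on day 5 (8.99%), 4 on day 12 (8.01%) and 3 on day 26 (14.3%). It counted 4 for the mean of the proton days (12% of all genes), 5 for late against early (13.2%), 5 for any proton day (9.54%) and 4 for a difference among days (8.43%). The values below are log2 signals and log2 differences with the standard error of the fit; in RNA from a suspension of cells, fewer cells of a type and less RNA per cell cannot be told apart.

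Glrx had the clearest difference from sham. It encodes the cytosolic glutaredoxin, which uses glutathione to free protein thiols from bound glutathione, and lies at chr13:75839885-75850151. Its log2 signal was 8.12 and 7.96 on day 1, 7.78, 7.88 and 7.63 on day 3, 7.95 and 7.76 on day 5, 7.76 and 7.33 on day 12 and 7.64 and 7.62 on day 26, against 8.30, 8.22 and 8.68 in sham. All 11 proton samples, with a median of 7.76, lay below all 3 sham samples. Of the 10 genes, Glrx alone had this ordering, which 0.909% of the genes tested shared in this direction.

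The mean of the 5 proton days was 1.55-fold lower than sham for Glrx (log2 difference -0.63 ± 0.11, SE), with unadjusted p = 0.000107, rank 11 of the 12102 genes, and limma adjusted p = 0.113. By day the differences were -0.36 ± 0.16 on day 1, -0.63 ± 0.14 on day 3, -0.54 ± 0.16 on day 5, -0.85 ± 0.16 on day 12 and -0.77 ± 0.16 on day 26, with limma adjusted p between 0.0867 (day 26) and 0.754 (day 1). The order of group means ran from sham (8.40) to day 1 (8.04), day 5 (7.86), day 3 (7.76), day 26 (7.63) and day 12 (7.55), and samples of neighbouring groups in this order overlapped from day 5 downwards. The test among the proton days gave limma adjusted p = 0.653. The sham day 3 array was the highest of the sham arrays; without it the mean difference was -0.49 and that of day 1 was -0.22. The 3 day 3 proton samples were all below the sham array of the same day as well as below those of day 1.

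The metallothioneins were highest on day 3. Mt1 (chr8:94178883-94180327) had log2 signals of 10.74 and 10.77 on day 1, 10.91, 11.11 and 11.16 on day 3, 10.83 and 10.90 on day 5, 10.43 and 10.69 on day 12 and 10.70 and 10.73 on day 26, against 10.69, 10.73 and 10.63 in sham. All samples of days 1, 3 and 5 lay above all sham samples, by a narrow margin on day 1, while those of days 12 and 26 overlapped sham. The day 3 difference was 0.37 ± 0.08, or 1.30-fold (unadjusted p = 0.000396; limma adjusted p = 0.22), and that of day 5 was 0.18 ± 0.09.

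Mt2 (chr8:94172618-94173567) is the neighbouring gene, upstream of Mt1 on the same strand. Its log2 signals were 11.33 and 11.40 on day 1, 11.63, 11.82 and 11.82 on day 3, 11.66 and 11.52 on day 5, 10.72 and 11.56 on day 12 and 11.19 and 11.27 on day 26, against 11.18, 11.23 and 11.23 in sham. Its samples of days 1, 3 and 5 also lay above all sham samples, and the day 12 samples fell on either side of sham. The differences were 0.54 ± 0.15 on day 3, or 1.46-fold (limma adjusted p = 0.333), and 0.38 ± 0.17 on day 5 (limma adjusted p = 0.548).

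The day 12 samples set the spread of Mt2. Their SD was 0.60 (n = 2), against 0.03 in sham (n = 3). Without day 12 replicate 1, the day 3 difference of Mt2 kept its size and passed (0.54 ± 0.06; limma adjusted p = 0.00991), as it did without day 12 replicate 2 (limma adjusted p = 0.00975). The day 12 difference itself was -0.07 ± 0.17, but 0.35 without replicate 1 and -0.49 without replicate 2. Late against early days, Mt1 differed by -0.27 ± 0.06 (limma adjusted p = 0.153) and Mt2 by -0.38 ± 0.13 (limma adjusted p = 0.25). Without day 12 replicate 2 the Mt2 value was -0.59 and passed (limma adjusted p = 0.00213); without replicate 1 it was -0.17.

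Across the 14 samples Mt1 and Mt2 moved together, with r = 0.906 (permutation p = 2e-05, adjusted over the 45 pairs of genes 0.0009) and rho = 0.842 (adjusted permutation p = 0.0081). Without the 2 samples farthest from the median of Mt1, r was 0.880. The permutations shuffled all 14 samples without regard to their groups. Differences between groups that 2 genes share can therefore make the p-value small, here and in the correlations below.

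Mt1 and Mt2 belong as well to the genes that glucocorticoids switch on. In a list of 12 other genes of that kind, 5 had an unadjusted p under 0.05 on day 3, all higher (8.86% of all genes in either direction), and none passed the adjusted threshold. The list's median difference was 0.17 on day 3, against 0.00415 for all genes tested. This median was 0.08 without proton day 3 replicate 3 and 0.26 without replicate 1. It was 0.03 on day 1, 0.11 on day 5 and 0.07 on day 12. The highest was 0.22 on day 26 (0.05 for all genes), with 3 genes at an unadjusted p under 0.05, all higher (14.3% of all genes in either direction). On day 26 Mt1 differed from sham by 0.03 ± 0.09 and Mt2 by 0.02 ± 0.17. A relation of the list to Mt1 and Mt2 was not tested. The transcription factor Zbtb16 differed by -0.26 ± 0.29 on day 1, 0.82 ± 0.26 on day 3, 0.86 ± 0.29 on day 5, -0.22 ± 0.29 on day 12 and 0.88 ± 0.29 on day 26. Klf15, another transcription factor, differed by 0.00 ± 0.11, 0.47 ± 0.10, 0.16 ± 0.11, 0.24 ± 0.11 and 0.40 ± 0.11 on the same days.

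Gclm was low from day 5 on. It encodes the modifier subunit of glutamate-cysteine ligase, the rate-limiting enzyme of glutathione synthesis (chr3:122245487-122267215). The log2 signals were 7.74 and 8.12 on day 1, 7.52, 7.65 and 7.85 on day 3, 7.23 and 7.38 on day 5, 7.21 and 7.47 on day 12 and 7.15 and 7.26 on day 26, against 7.63, 7.77 and 7.72 in sham. Every sample of days 5, 12 and 26 lay below every sham sample, and the samples of days 1 and 3 overlapped sham.

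The Gclm differences were 0.23 ± 0.14 on day 1, -0.03 ± 0.12 on day 3, -0.40 ± 0.14 on day 5, -0.36 ± 0.14 on day 12 and -0.50 ± 0.14 on day 26, the last being 1.41-fold lower (limma adjusted p = 0.168). Late against early days, Gclm was 1.44-fold lower (-0.53 ± 0.10, limma unadjusted p = 0.000218, rank 18, limma adjusted p = 0.129). This comparison uses no sham sample, so an effect of protons and one of time alone cannot be told apart in it. The day 1 value rested on replicate 2: it was 0.04 without replicate 2 and 0.41 without replicate 1. The day 12 value was -0.24 without day 12 replicate 1 and -0.49 without replicate 2.

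Gclc, the catalytic subunit of the same ligase (chr9:77754535-77794489), showed no such order. Its log2 signals were 6.94 and 6.66 on day 1, 6.88, 7.10 and 7.09 on day 3, 7.13 and 6.92 on day 5, 6.58 and 7.29 on day 12 and 7.06 and 6.70 on day 26, against 6.67, 6.79 and 7.31 in sham. Samples of every proton day overlapped sham. The mean of the proton days differed from sham by 0.01 ± 0.16, with a 95% interval from -0.34 to 0.36. On day 26 alone the interval ran from -0.54 to 0.45, which includes the difference measured for Gclm. Without the sham day 3 array the mean difference was 0.20, and without sham day 1 replicate 1 it was -0.12.

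Gsta4, a transferase that joins glutathione to the lipid aldehyde hydroxynonenal (chr9:78191966-78209349), had its lowest group means on days 5, 12 and 26. Its log2 signals were 9.65 and 9.51 on day 1, 9.49, 9.54 and 9.61 on day 3, 9.27 and 9.31 on day 5, 9.42 and 9.23 on day 12 and 9.33 and 9.38 on day 26, against 9.69, 9.57 and 9.89 in sham. All 6 samples of the last 3 days lay below all sham samples, and days 1 and 3 overlapped them. The differences were -0.43 ± 0.10 on day 5 (1.35-fold lower; limma adjusted p = 0.29), -0.39 ± 0.10 on day 12 (limma adjusted p = 0.505) and -0.36 ± 0.10 on day 26 (limma adjusted p = 0.165). On days 1 and 3 the differences were in the same direction, at -0.14 ± 0.10 and -0.17 ± 0.09. For Gsta4 the test among the proton days gave limma adjusted p = 0.578. The mean of the days was -0.30 ± 0.07 (limma adjusted p = 0.233), and -0.21 without the sham day 3 array. With array weights, a fit that lets noisier samples count less, Gsta4 passed on day 5 (-0.44, limma adjusted p = 0.0392) and day 26 (-0.37, limma adjusted p = 0.0392). More genes of any kind passed in that fit. Of 12102 genes, 47 passed on day 5 and 309 on day 26, against 6 and 5 in the main analysis.

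Sod2, the manganese superoxide dismutase of mitochondria (chr17:13007839-13018119), differed little. It had 11.04 and 11.03 on day 1, 11.06, 11.15 and 11.11 on day 3, 10.97 and 10.98 on day 5, 11.04 and 10.84 on day 12 and 11.01 and 11.01 on day 26, against 11.11, 11.03 and 11.22 in sham, all as log2 signals. The samples of days 5 and 26 lay just below all sham samples, and the rest overlapped them. The mean difference was -0.11 ± 0.05 (limma adjusted p = 0.412), and -0.06 without the sham day 3 array.

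Gsta4 moved with Sod2 across the 14 samples (r = 0.862, adjusted permutation p = 0.0027; rho = 0.868, adjusted permutation p = 0.00405; r = 0.745 without the 2 samples farthest from the median of Gsta4). Gsta4 and Glrx gave r = 0.811 (adjusted permutation p = 0.00705), but rho = 0.688 (adjusted permutation p = 0.0738) and r = 0.572 without 2 samples, so this relation rested in part on those samples. The sham day 3 array was the highest of all samples for Glrx, Gsta4, Gclc and Sod2. Txnrd1 and Sod2 passed by rank alone (rho = 0.745, adjusted permutation p = 0.0488; r = 0.631, adjusted permutation p = 0.122), and no other pair of the 45 passed by either measure.

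**Figure D2:**
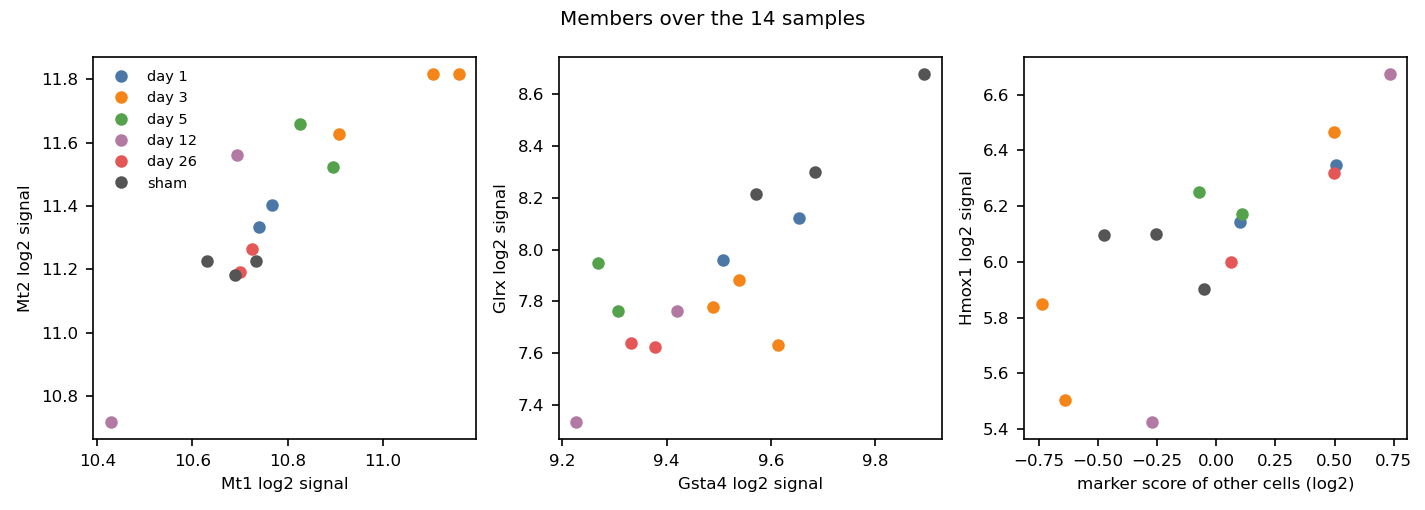
Left, Mt2 against Mt1 log2 signal; middle, Glrx against Gsta4 log2 signal; right, Hmox1 log2 signal against the marker score of other cells (log2); points are the 14 samples, coloured by day after protons or sham. Both values increase together in all 3 panels, with the sham day 3 array at the upper end for Glrx and Gsta4 and proton day 12 replicate 2 at the upper end for Hmox1.

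The Nrf2 target enzymes Hmox1, Nqo1 and Txnrd1 gave no difference from sham that held over days. Hmox1, the inducible haem oxygenase (chr8:75093618-75100593), had log2 signals of 6.14 and 6.35 on day 1, 5.51, 5.85 and 6.46 on day 3, 6.25 and 6.17 on day 5, 5.43 and 6.67 on day 12 and 6.32 and 6.00 on day 26, against 6.10, 5.90 and 6.10 in sham. Samples of days 1 and 5 lay above sham and those of days 3 and 12 were spread on both sides of it. The mean of the days differed by 0.09 ± 0.23 (95% interval -0.41 to 0.58), and leaving out day 12 replicate 1 or 2 moved it to 0.21 or -0.04.

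Hmox1 went with the markers of other cells. The marker score, averaged over the lists of endothelial, fibroblast and macrophage genes as deviations from each gene's mean, correlated with Hmox1 at r = 0.795 (adjusted permutation p = 0.0065 over the 10 genes) and rho = 0.859 (adjusted permutation p = 0.0014). Without the 2 samples farthest from the median score r was 0.750, and over the 11 proton samples alone it was 0.856. Proton day 3 replicate 3 and day 12 replicate 2 had scores of 0.50 and 0.73, against -0.64, -0.74 and -0.27 in the other samples of their groups, and they were also the samples with the highest Hmox1 in those groups. Macrophages break down haem with this enzyme; the part of such cells in the Hmox1 signal was not tested.

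Nqo1, a quinone reductase (chr8:107388225-107403205), had 7.90 and 7.89 on day 1, 7.77, 8.09 and 7.51 on day 3, 7.78 and 7.79 on day 5, 8.10 and 7.68 on day 12 and 7.87 and 7.71 on day 26, against 8.01, 7.82 and 7.74 in sham, all as log2 signals. Every day overlapped sham, and the mean difference was -0.03 ± 0.12 (95% interval -0.28 to 0.23). Txnrd1, the cytosolic thioredoxin reductase (chr10:82833951-82897724), had 6.95 and 7.07 on day 1, 7.12, 7.26 and 7.19 on day 3, 6.86 and 6.89 on day 5, 7.01 and 6.88 on day 12 and 7.08 and 6.83 on day 26, against 6.92, 6.95 and 7.09 in sham. All 3 day 3 samples lay above sham and both day 5 samples below it. The Txnrd1 differences were 0.21 ± 0.10 on day 3 (limma adjusted p = 0.565) and -0.11 ± 0.11 on day 5, and the mean was 0.01 ± 0.08 (95% interval -0.16 to 0.18). Without the sham day 3 array the day 5 value was -0.06.

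**Figure D3:**
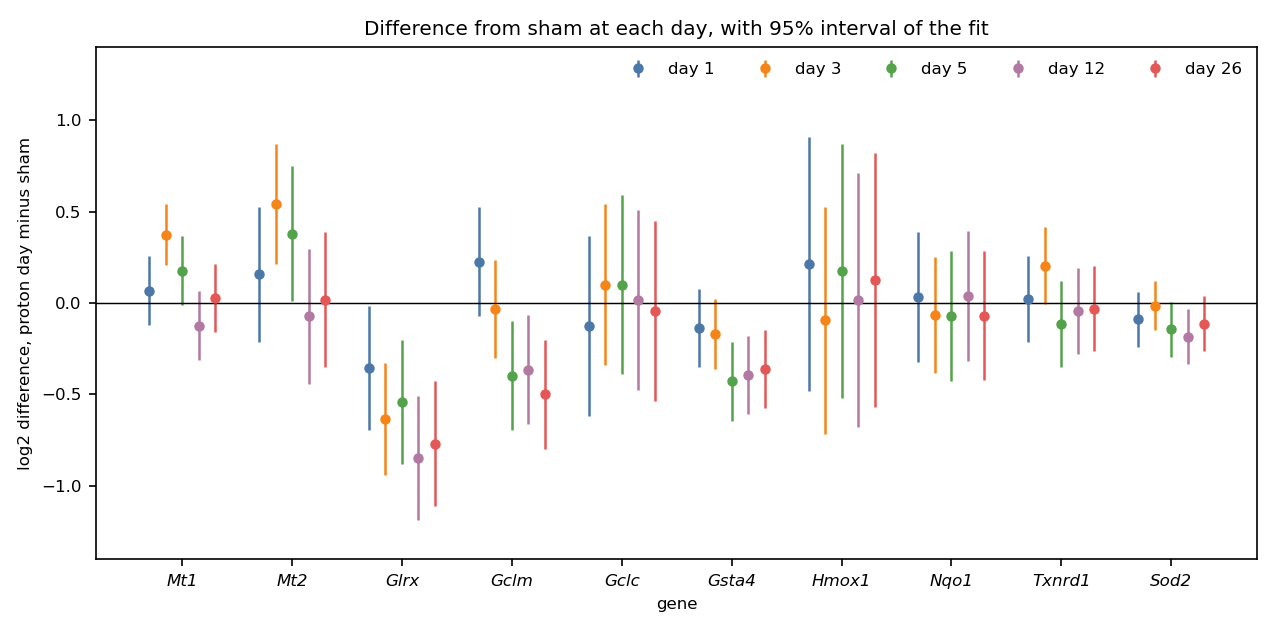
Log2 difference of each proton day from pooled sham (vertical axis) for the 10 genes (horizontal axis); points are the limma estimates for days 1 to 26 and bars their 95% intervals, before any adjustment over genes. Glrx, Gsta4 and Sod2 lie below 0 on all 5 days, but only for Glrx does the interval lie below 0 on each. The intervals of Gclm and Gsta4 lie below 0 on days 5, 12 and 26. Mt1 and Mt2 peak on day 3, and Hmox1 has the widest intervals.

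The genes whose samples did not overlap sham were counted by day. At day 1, 3 were higher (Mt1, Mt2 and Hmox1; 14.2% of all genes tested) and 1 lower (Glrx; 14.9%). At day 3, 3 were higher (Mt1, Mt2 and Txnrd1; 8% of all genes) and 1 lower (Glrx; 4.39%). At day 5, 3 were higher (Mt1, Mt2 and Hmox1; 16.8%) and 5 lower (Glrx, Gclm, Gsta4, Txnrd1 and Sod2; 15.8%). At day 12, 3 were lower (Glrx, Gclm and Gsta4; 11.2%), and on day 26, 4 were lower (Glrx, Gclm, Gsta4 and Sod2; 14.1%). The comparisons of the days share the 3 sham samples, so these counts are not independent of each other.

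Markers of other cells varied between the samples. The 10 cardiomyocyte markers, among them Myh6, Tnnt2 and Ryr2, had a mean log2 level of 12.03 to 12.11 in proton samples and 12.07 to 12.10 in sham samples. The 15 macrophage and monocyte markers ranged from 5.93 to 7.58 in proton samples and 6.24 to 6.73 in sham. The 12 endothelial markers ranged from 7.23 to 8.66 in proton samples and 7.67 to 8.11 in sham. The 12 fibroblast markers ranged from 6.59 to 8.01 in proton samples and 6.84 to 7.20 in sham. Of the listed markers of these 3 types, the monocyte receptor Ccr2 and the fibroblast factor Tcf21 were below the signal filter. Both enter these ranges, but neither the counts that follow nor the marker score. For the mean of the days, 14 of 14 macrophage, 11 of 11 fibroblast and 10 of 12 endothelial markers were above sham. Of these, 0, 3 and 1 had an unadjusted p under 0.05 in that direction. Among all genes tested, 53.3% were above sham and 12% had an unadjusted p under 0.05 in either direction. Lymphocyte markers were above sham in 6 of 6 genes tested, 4 of them at an unadjusted p under 0.05 (median 0.52, and 1.18 on day 26). Mesothelial markers were above sham in 7 of 7 (median 0.63), neutrophil markers in 4 of 4 (median 0.42) and smooth muscle and pericyte markers in 6 of 7 (median 0.03). Erythroid and platelet markers were below sham in 4 of 5 (median -0.27). In each of these lists 0 genes had an unadjusted p under 0.05. Cardiomyocyte markers were below sham in 7 of 10 (median -0.03), 2 of them at an unadjusted p under 0.05. Only 6 of 10 listed lymphocyte, 4 of 9 neutrophil and 5 of 9 erythroid and platelet markers were tested. The others had no probe set or a mean below the filter. That mean includes the proton arrays, so a marker high in them passes more easily. Late against early, where Mt1, Mt2 and Gclm were lower, lymphocyte markers were higher in 6 of 6 genes (median 0.69; 4 at an unadjusted p under 0.05). In that comparison neutrophil markers were lower in 4 of 4 genes (median -0.63; 0 at an unadjusted p under 0.05) and erythroid and platelet markers in 4 of 5 (median -1.07; 2 at an unadjusted p under 0.05). Late against early, 56.8% of all genes were higher and 13.2% had an unadjusted p under 0.05 in either direction. The part of these other cells in the differences of the 10 genes was not tested. All 3 sham samples had a marker score below 0, from -0.47 to -0.05, while proton samples ranged from -0.74 to 0.73. Of the 10 genes, the correlation with this score was -0.62 for Sod2 (adjusted permutation p = 0.0798) and -0.51 for Glrx (adjusted permutation p = 0.203). It was -0.48 for Nqo1, -0.42 for Gsta4 (adjusted permutation p = 0.268), -0.29 for Txnrd1 and 0.10 for Gclc. For Mt1, Mt2 and Gclm it was between -0.05 and 0.07, but 0.35 for Mt1 without the 2 samples farthest from the median score.

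With the marker score as a covariate in the fit, Mt1, Mt2, Glrx and Gclm passed the adjusted threshold in some comparisons. At day 3, Mt1 (0.38; limma adjusted p = 0.0127), Mt2 (0.55; adjusted p = 0.0487) and Glrx (-0.64; adjusted p = 0.0127) passed, where 0.843% of all genes did. At day 26, Glrx (-0.61; limma adjusted p = 0.0349) and Gclm (-0.63; adjusted p = 0.0254) passed, against 1.11% of all genes. Glrx passed for the mean of the days (-0.52; limma adjusted p = 0.0313; 0.157% of all genes). Late against early, Gclm (-0.59; limma adjusted p = 0.0084), Mt1 (-0.31; adjusted p = 0.014) and Mt2 (-0.44; adjusted p = 0.0387) passed, against 2.93% of all genes. Mt1, Glrx and Gclm passed for any proton day (limma adjusted p of 0.018, 0.0245 and 0.0237; 1.21% of all genes), and Mt1 and Gclm for a difference among days (limma adjusted p = 0.0199 and 0.0298; 0.554%). The Glrx difference on day 26 was smaller with the covariate (-0.61 ± 0.12, against -0.77 ± 0.16 without it) and that of Gclm larger (-0.63 ± 0.12, against -0.50 ± 0.14).

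The other genes of these pathways are given from fixed lists of their names. No gene of the 9 lists passed the adjusted threshold in any comparison. For the mean of the proton days, where the median of all genes was 0.01, zinc handling genes had the highest list median, 0.13, with 17 of 18 genes above sham (53.3% of all genes were) and 3 of them at an unadjusted p under 0.05 (12% of all genes in either direction, so 3 of 18 is near the background). Thioredoxin, peroxiredoxin and related genes had the lowest, -0.13, with 11 of 14 below sham and 8 at an unadjusted p under 0.05. Glutathione transferases had 13 of 16 below sham (median -0.06; 1 at an unadjusted p under 0.05, lower), and glutathione synthesis and recycling 10 of 16 (median -0.08; 3 lower). Without a single sample the transferase median ran from -0.13 (sham day 1 replicate 2) to -0.04 (proton day 1 replicate 2), and that of synthesis and recycling from -0.09 (proton day 5 replicate 3) to -0.03 (sham day 1 replicate 2). Under quantile normalization and under equal array medians the zinc median stayed above 0 (0.09 and 0.10) and the thioredoxin median below it (-0.10 and -0.16). Leaving out a single sample moved the zinc median between 0.07 (without sham day 1 replicate 1) and 0.21 (without sham day 1 replicate 2), and the thioredoxin median between -0.19 (without sham day 1 replicate 2) and -0.09 (without sham day 1 replicate 1).

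**Figure D4:**
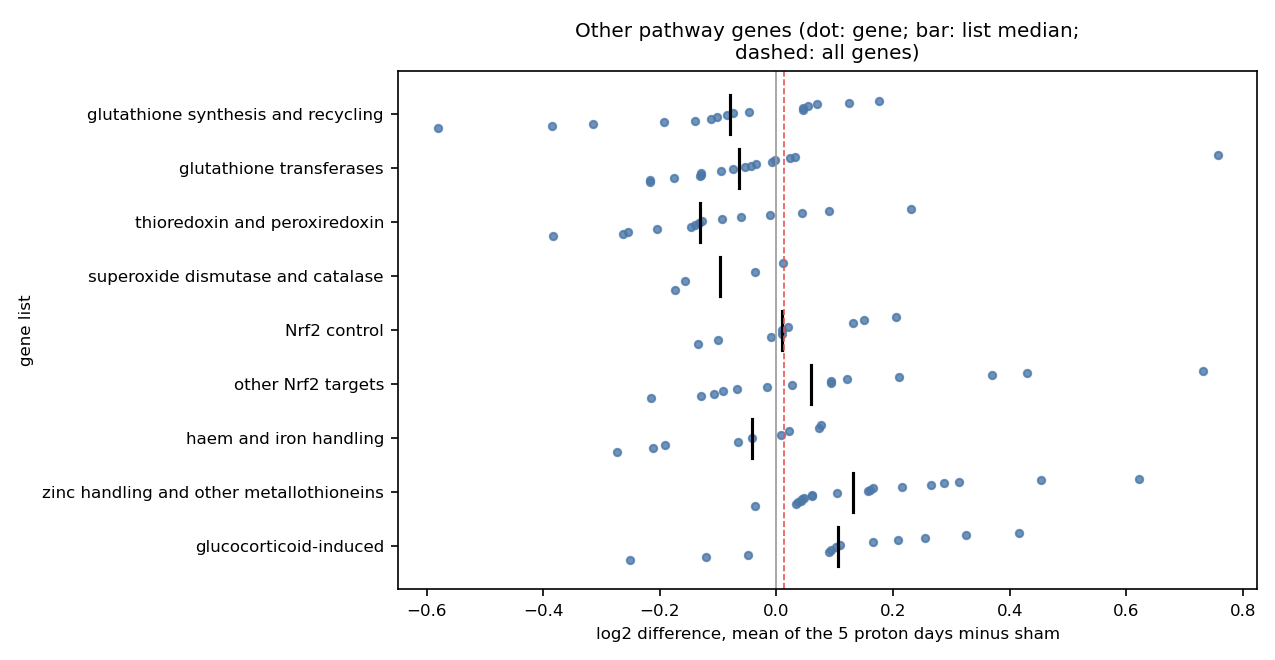
Log2 difference of the mean of the 5 proton days from sham (horizontal axis) for each tested gene of 9 lists (rows); dots are genes, black bars list medians, and the dashed line the median of all genes tested, 0.01. Most zinc handling genes lie right of 0 and most thioredoxin genes left of it, and no gene shown passed the adjusted threshold.

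Named by the smallest p for any proton day, Slc30a5, a transporter that carries zinc into the Golgi, stood out among them. It differed by 0.62 ± 0.11 on day 1, 0.36 ± 0.10 on day 3, 0.50 ± 0.11 on day 5, 0.45 ± 0.11 on day 12 and 0.35 ± 0.11 on day 26 (mean of the days 0.45 ± 0.08, limma adjusted p = 0.113). The zinc importer Slc39a3 had 0.16 ± 0.08 for the mean of the days. Among thioredoxin genes, Txnrd3, a thioredoxin reductase best known from testis, had -0.38 ± 0.14 with -0.72 ± 0.20 on day 5, and Msrb1, a methionine sulfoxide reductase, had -0.25 ± 0.07 with -0.42 ± 0.10 on day 12 and -0.37 ± 0.10 on day 26.

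In glutathione metabolism, Glrx3, a glutaredoxin of iron-sulfur cluster assembly, had -0.58 ± 0.18 for the mean of the days and between -0.80 and -0.50 on each day, while Ggt5, a gamma-glutamyl transferase, had 0.05 ± 0.12. Of the transferases, Gstm5 had -0.22 ± 0.10, with -0.42 ± 0.13 on day 26, and the microsomal Mgst1 had 0.03 ± 0.14, with 0.32 ± 0.19 on day 1 and -0.27 ± 0.19 on day 26. The extracellular superoxide dismutase Sod3 had 0.01 ± 0.09, and Ccs, the copper chaperone of Sod1, had -0.16 ± 0.12.

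Control genes of the Nrf2 pathway had small differences. Mafg, a DNA-binding partner of Nrf2, had 0.15 ± 0.10 for the mean of the days and 0.34 ± 0.12 on day 3. Nfe2l1, a relative of Nrf2, had 0.13 ± 0.06 for the mean. Nfe2l2, the gene of Nrf2 itself, had 0.20 ± 0.13 for the mean and 0.32 ± 0.16 on day 3. Keap1 had -0.10 ± 0.08 for the mean. The list's median was 0.01 with 6 of 9 genes above sham, and -0.01 without sham day 1 replicate 2. Of 14 other Nrf2 targets 8 were above sham (median 0.06, but -0.01 without sham day 1 replicate 1 and 0.10 without replicate 2): Tkt, the transketolase of the pentose phosphate pathway, had 0.37 ± 0.22 with 1.06 ± 0.30 on day 26, and Aox1, an aldehyde oxidase, had 0.12 ± 0.11 with 0.45 ± 0.14 on day 3. In haem and iron handling, the constitutive haem oxygenase Hmox2 had -0.19 ± 0.07 and Alas1, the entry enzyme of haem synthesis, -0.21 ± 0.08 for the mean of the days. With the marker score as a covariate, the mean difference of Tkt was 0.12 ± 0.14 and that of Slc30a5 was 0.39 ± 0.07.

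The genes whose signal went most closely with each of the 10 over the 14 samples are given as a description, since the samples share their groups and arrays. For Mt1 these were Heatr5b (r = 0.936), Akap8 (0.929) and Mt2 (0.906), and for Mt2 they were Kdm5d (0.912), Mt1 and Clk4 (0.867). Glrx went with Grb14 (0.930), Psmg1 (0.907) and Cenpa (0.906), and Grb14 was also among the 3 closest to Gsta4 (0.912), with Mpi (0.927) and Mrpl16 (0.910). Gclm went with Lcn2 (0.923), Nup88 and Hsd17b4 (both 0.881). Hmox1 went with Ldb2, Man1a2 (both 0.922) and Arhgap6 (0.914), and Sod2 with Nudt19 (0.941), Mrps23 (0.938) and Smpx (0.933). Gclc (Ints8, 0.844), Nqo1 (Khdrbs3, 0.862) and Txnrd1 (Senp8, 0.907) had their closest gene at a lower r than those of Mt1, Glrx, Gsta4 and Sod2.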

How the data were processed

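The authors deposited 1 table of log2 signals for 34760 probe sets on 15 Affymetrix mouse gene arrays; per the submitters' processing notes the tool was MAS5, and background correction and scaling are not given in the sources used here. Values ran from 0.123 to 12.9 and array medians from 4.90 to 5.16; the number of arrays limits the precision. Probe sets were named from the platform annotation: 21640 had 1 gene symbol, 1321 several and 11799 none. Each gene was represented by its single-symbol probe set with the highest mean, and genes with a mean above 5.00, the median of all probe sets, were tested.

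The 14 samples in 6 groups left 8 residual degrees of freedom; limma 3.58.1 (R 4.3.3) gave each contrast through lmFit and trended eBayes, adjusted by Benjamini-Hochberg over 12102 genes at 0.05. The procedure was tested on simulated data. Correlations were tested by permutation over all 14 samples, not within groups, with 100000 resamples, 2-sided, in Python 3.11.15 with scipy 1.17.1. The text names all 10 genes, any gene of a pathway list past the threshold or else the 2 with the smallest p for any proton day, and the 3 tested genes with the highest r to each of the 10. Nfe2l2, Keap1 and the genes under other observations are given outside this rule. The genes, lists and tests were chosen with earlier results of these data known. Sequences were read from RefSeq tables (GRCm38.p6).

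Deviations of samples of the same replicate number in different groups had correlations from -0.722 to 0.457 (31 pairs, median -0.0063, 10 above 0.1). Most groups had 2 arrays, whose deviations from the group mean mirror each other, so this check cannot decide whether the numbers mark a pairing. The main analysis did not pair samples by number. Alternatives were 2 scalings, 2 filters, averaging of probe sets, 15 separate arrays, no variance trend, array weights, the marker score as a covariate, sham of day 1 alone, a replicate block and leaving out each array.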

Additional observations from a re-analysis of the deposited data

How the results depend on the processing

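Of 2331 values for the 10 genes under alternative settings, 2306 kept their side of the threshold and 25 newly passed. Of these, 14 passed with the other-cell marker score in the fit, 4 with array weights and 1 with 15 separate arrays. The others passed with a day 12 sample left out, which leaves 1 sample in that group. No call could be lost, since none of the 10 genes passed in the main analysis. Some differences that did not pass took either sign, such as the means of Gclc and Hmox1 over the days and Mt1 on day 12 (-0.12, and 0.01 without day 12 replicate 1). The cause was not tested. Each of the 10 genes has 1 probe set, so using other probe sets of a gene could not change them, and Hmox1 does not enter under the stricter filter. Glrx on day 26 passed with 15 separate arrays (limma adjusted p = 0.0475), where 54 genes of any kind passed. It also passed on day 26 with array weights (limma adjusted p = 0.0165), where 309 genes did. The mean of Glrx over the days passed with array weights (limma adjusted p = 0.0405), where 24 genes did. The median of all genes on day 26 was 0.05, and -0.05 under equal array medians, a shift of over 0.1.

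The number of the 10 genes passing was 0 in every comparison as reported. With the covariate it was 3 on day 3, 2 on day 26, 1 for the mean, 3 for late against early, 3 for any day and 2 among days; with array weights 1 on day 5, 2 on day 26 and 1 for the mean; with 15 arrays 1 on day 26. Leaving out a sample gave 0 to 1 on day 3, for late against early, for any day and among days.

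Counts over all genes moved more. The main counts were 0, 1, 6, 0 and 5 on days 1, 3, 5, 12 and 26, 3 for the mean, 1 for late against early, 3 for any day and 0 among days. With the covariate they were 3, 102, 17, 1, 134, 19, 354, 146 and 67 in that order. With array weights they were 1, 4 and 47 on days 1, 3 and 5, 309 on day 26, 24, 2, 55 and 20. With 15 separate arrays they were 5, 32, 2 and 54 on days 3 to 26, 10, 11, 28 and 11. Quantile normalization gave 3 on day 3, 26 on day 26 and 3 late against early, and equal medians gave 2 on day 3, 0 on day 26, 1 for the mean and 0 for any day. No filter gave 12 on day 26, the stricter filter 23 on day 26 and 7 late against early, and the mean of probe sets 3 on day 3. Without a variance trend the counts were 3, 1 and 3 on days 3, 5 and 26, 2 late against early and 1 for any day. With sham of day 1 alone they were 2 on days 3 and 26, 0 for the mean, 6 late against early, 8 for any day and 5 among days. The replicate block gave 2 on day 3, 11 on day 5, 13 late against early, 21 for any day and 14 among days, and no call among the 10 genes. Leaving out a sample gave 0 to 1 on days 1 and 12, 1 to 5 on day 3, 0 to 7 on day 5, 0 to 41 on day 26, 0 to 3 for the mean, 0 to 6 late against early, 0 to 8 for any day and 0 to 5 among days.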

Other observations

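The other glutaredoxins were looked at after the values of Glrx were seen. For the mean of the proton days Glrx2, a mitochondrial glutaredoxin, differed from sham by -0.31 ± 0.12 (SE; limma adjusted p = 0.352) and Glrx5, a mitochondrial protein of iron-sulfur cluster assembly, by -0.19 ± 0.12 (limma adjusted p = 0.5). With the other-cell marker score in the fit these were -0.20 ± 0.09 and -0.07 ± 0.08, and Glrx3 was -0.49 ± 0.17. Glrx2, Glrx3 and Glrx5 did not pass the adjusted threshold in these fits.

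The largest differences among transferases and Nrf2 targets, also picked by value, were those of Gsta3, an alpha-class transferase (0.76 ± 0.48; limma adjusted p = 0.518), and Ephx1, the microsomal epoxide hydrolase (0.73 ± 0.28; limma adjusted p = 0.366). With the marker score as a covariate they were 0.11 ± 0.20 and 0.34 ± 0.10. The zinc importer Slc39a8, which had the largest difference of its list (0.62 ± 0.42), had 0.07 ± 0.19 with the score.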
